A study of Mus musculus with 6 samples.

Results

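The genes described here encode the mouse machinery that attaches the ubiquitin-like protein ISG15 to other proteins and removes it again. They were taken by symbol as Isg15, Uba7, Ube2l6, Herc6 and Usp18, and each symbol named 1 of the 52550 genes in the deposited files. Plasmacytoid dendritic cells from the spleen of C57BL/6 mice were given R837 for 12 hours in both groups. R837 (imiquimod) is a small-molecule agonist of the endosomal receptor TLR7. It was given alone in 3 libraries and together with taurine, an amino sulfonic acid, in the other 3. Messenger RNA was then sequenced. The sources used here do not give the age of the mice, how the cells were isolated or whether animals were pooled, and libraries without R837 were not analysed here. The labels do not tie the replicates to separate mice or cultures, and p-values here therefore measure only the spread between libraries, which may be technical.

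ISG15 is made as a precursor and is joined to lysines of target proteins by a cascade like that of ubiquitin. UBA7 is the activating enzyme, UBE2L6 the conjugating enzyme, and HERC6 the main ligase in the mouse, where it does the work that HERC5 does in human cells. USP18 takes ISG15 off its targets. It also binds the interferon receptor subunit IFNAR2 and dampens signalling there, independently of its protease activity. Type I interferon induces these genes through the factor ISGF3, which binds the interferon-stimulated response element. Plasmacytoid dendritic cells are a major source of type I interferon after TLR7 is engaged.

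The promoter windows are shown because the genes share interferon as an inducer, while of the windows found only that of Isg15 held the letters searched for. RefSeq windows of build GRCm38.p6, from 250 bases before to 50 bases after the gene start, were matched for 4 of the 5 genes, and Usp18 was not matched. The search, on both strands, used the core of the response element (the letters GAAA, then NN, then GAAA) and the gamma-activated site (TTC, then NNN, then GAA), with N any base. Isg15, on the minus strand at chr4:156200769-156201068, held 3 matches to the response element core that overlap one another and start 78, 72 and 66 bases before the gene start. Ube2l6, on the plus strand at chr2:84798578-84798877, held a match to neither motif, and it is shown beside Isg15 because the values of these genes ran closest together across libraries. Capitals mark the overlapping matches in the Isg15 window.
Isg15: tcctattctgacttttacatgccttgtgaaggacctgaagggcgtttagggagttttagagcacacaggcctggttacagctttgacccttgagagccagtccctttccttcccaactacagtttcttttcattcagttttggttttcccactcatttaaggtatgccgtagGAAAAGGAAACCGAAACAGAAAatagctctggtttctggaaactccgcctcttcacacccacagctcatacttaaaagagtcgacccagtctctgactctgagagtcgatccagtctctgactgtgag
Ube2l6: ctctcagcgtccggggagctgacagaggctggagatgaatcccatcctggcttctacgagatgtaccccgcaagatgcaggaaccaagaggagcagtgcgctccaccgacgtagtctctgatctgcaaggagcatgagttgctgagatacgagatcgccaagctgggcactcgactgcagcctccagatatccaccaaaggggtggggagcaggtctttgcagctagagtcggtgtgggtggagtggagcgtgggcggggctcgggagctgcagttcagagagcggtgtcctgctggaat
The windows of Uba7 and Herc6 also held neither motif. Over all 32851 RefSeq windows of this length, 3.44% held the response element core and 8.30% the gamma-activated site. A match is a description of the letters, and the absence of one says only that these letters are not in this window.

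Libraries held 33585080 to 38392654 reads on genes, and the files give a normalized count per gene. Markers of plasmacytoid dendritic cells summed to 10176 to 11046 CPM (counts scaled to an equal library total) with R837 and 10508 to 10910 with taurine. The sums overlapped, but of these 12 markers 5 were called lower and 1 higher with taurine by limma. Markers of T cells (6 genes) summed to 1.14 to 2.38 and 1.12 to 2.63 CPM, with Cd3d and Cd3g at 0 in all libraries, those of NK cells (5 genes) to 1.49 to 2.22 and 0.813 to 1.72 CPM, with Gzma at 0, and those of B cells (7 genes) to 43.7 to 76.5 and 46.7 to 67.3 CPM. Markers of conventional dendritic cells (6 genes) summed to 328 to 367 CPM with R837 and 284 to 314 with taurine, and those of monocytes and macrophages (8 genes) to 624 to 665 and 646 to 793. Neutrophil markers (6 genes) summed to 29.2 to 41.5 and 41.9 to 51.8 CPM, and erythroid markers (6 genes) to 2.40 to 3.60 and 4.42 to 6.54. The sums of conventional dendritic cell, neutrophil and erythroid markers did not overlap between the groups. In these lists 1 conventional dendritic cell marker was called lower, and 1 marker each of monocytes and macrophages, neutrophils and erythroid cells was called higher. The part of the markers in the results was not tested. In bulk samples, fewer cells of a type and less RNA per cell cannot be told apart.

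The modifier and its protease rose with taurine, and so did the conjugating enzyme, while the activating enzyme and the ligase did not pass the test. Of the 5 genes, 3 were called higher and 0 lower by limma (Benjamini-Hochberg over 15265 genes, adjusted p under 0.05). Over all tested genes 6.41% were called, 3.75% higher and 2.66% lower. At an unadjusted p under 0.05 from limma the numbers were 5 higher and 0 lower. Over all 15265 tested genes they were 1767 higher and 1855 lower. edgeR's quasi-likelihood test called 3 of the 5 genes higher and 0 lower, against 571 and 379 over all tested genes. In 4 of the 5 genes each taurine library lay above each R837 library, which held for 14.6% of tested genes, while the groups did not overlap in either direction for 29.6%. The median log2 change of the 5 genes was 0.47, against -0.01 over all tested genes. Changes are R837 plus taurine minus R837 on the log2(normalized count + 1) scale.

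Isg15, the modifier itself (ENSMUSG00000035692.6, mm10 chromosome 4, 156199424 to 156200818, minus strand, protein coding, 2 exons), had normalized counts of 19238, 18069 and 19372 in R837 replicates 1 to 3. With taurine they were 28079, 28259 and 30322. The groups were far apart compared with the spread inside each. The mean went from 18893 ± 717 to 28887 ± 1246 (SD, n = 3), a fold of 1.53, with a log2 change of 0.61 ± 0.061 (SE) and an adjusted p of 0.00370 from limma. Isg15 ranked 17 among all tested genes by p and kept its call with any 1 of the 6 libraries left out.

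Uba7 encodes the activating enzyme, which loads ISG15 onto the conjugating enzyme (ENSMUSG00000032596.14, mm10 chromosome 9, 107975505 to 107984060, plus strand, protein coding). R837 replicates 1 to 3 had normalized counts of 10561, 10191 and 12785, and the taurine replicates had 13296, 13695 and 14697. The groups did not overlap, but R837 replicate 3 lay nearer to the taurine libraries than to the other R837 libraries. The mean was 11179 ± 1403 with R837 and 13896 ± 722 with taurine (SD, n = 3), with a log2 change of 0.32 ± 0.093 (SE) and an adjusted p of 0.0763 from limma. Without R837 replicate 3 the log2 change was 0.42 and Uba7 was called, with an adjusted p of 0.0121 from limma.

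Ube2l6 encodes the conjugating enzyme, which carries ISG15 to the ligase (ENSMUSG00000027078.14, mm10 chromosome 2, 84798828 to 84810335, plus strand, protein coding). Its normalized counts were 5985, 5747 and 6205 with R837 and 7935, 8073 and 8906 with taurine. The groups did not overlap, and the taurine libraries spread a little more widely than the R837 libraries. The mean rose from 5979 ± 229 to 8305 ± 525 (SD, n = 3), a fold of 1.39, with a log2 change of 0.47 ± 0.073 (SE) and an adjusted p of 0.0121 from limma. The call was kept in 4 of the 6 fits with 1 library left out. It was lost without R837 replicate 2 (adjusted p of 0.0639 from limma) and without taurine replicate 3 (adjusted p of 0.0504 from limma).

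Herc6 encodes the ligase that joins ISG15 to its targets in mouse cells (ENSMUSG00000029798.11, mm10 chromosome 6, 57581000 to 57664632, plus strand, protein coding). R837 replicates 1 to 3 had normalized counts of 8138, 8914 and 12492, and the taurine replicates had 12956, 13707 and 12023. The groups overlapped, because R837 replicate 3 lay above taurine replicate 3, while R837 replicates 1 and 2 lay below every taurine library. The mean was 9848 ± 2323 with R837 and 12896 ± 844 with taurine (SD, n = 3), with a log2 change of 0.41 ± 0.14 (SE) and an adjusted p of 0.124 from limma. Without R837 replicate 3 the log2 change was 0.60 and Herc6 was called, with an adjusted p of 0.00733 from limma. With R837 replicate 1 left out the log2 change was 0.29, so single libraries set the size of this value.

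Usp18 encodes the protease that removes ISG15 and restrains the interferon receptor (ENSMUSG00000030107.10, mm10 chromosome 6, 121245906 to 121270917, plus strand, protein coding). Its normalized counts were 15381, 13040 and 13154 with R837 and 19468, 19541 and 19785 with taurine. The taurine libraries lay close together and above every R837 library. The mean rose from 13858 ± 1320 to 19598 ± 166 (SD, n = 3), a fold of 1.41, with a log2 change of 0.50 ± 0.075 (SE) and an adjusted p of 0.0112 from limma. The call was kept in 4 of the 6 fits with 1 library left out. It was lost without R837 replicate 2 (adjusted p of 0.0567 from limma) and without taurine replicate 3 (adjusted p of 0.0504 from limma).

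**Figure D1:**
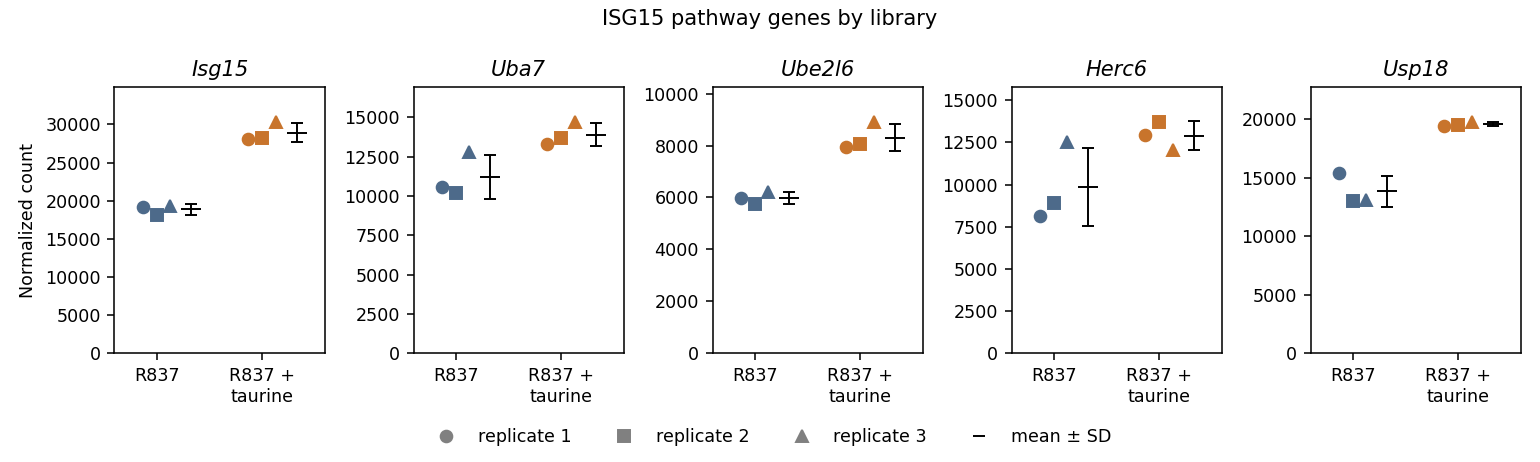
Normalized count (linear axis from 0) of the 5 genes in each library, with R837 in blue and R837 plus taurine in orange, a symbol per replicate number and the mean ± SD in black. R837 replicate 3 stands above the other R837 libraries for Uba7 and Herc6, while Isg15, Ube2l6 and Usp18 show no overlap between groups.

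The number of called genes among the 5 rested on single libraries. It was 5 without R837 replicate 3, 3 without R837 replicate 1 or taurine replicate 1 or 2, and 1 without R837 replicate 2 or taurine replicate 3. Isg15 was the gene called in each of these fits, and the sign of the change was positive for every gene in every one. The 95% intervals of the log2 change over all 6 libraries ran from 0.47 to 0.75 for Isg15, 0.31 to 0.64 for Ube2l6 and 0.33 to 0.67 for Usp18. They ran from 0.11 to 0.53 for Uba7 and from 0.085 to 0.74 for Herc6, the gene whose R837 libraries spread most.

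**Figure D2:**
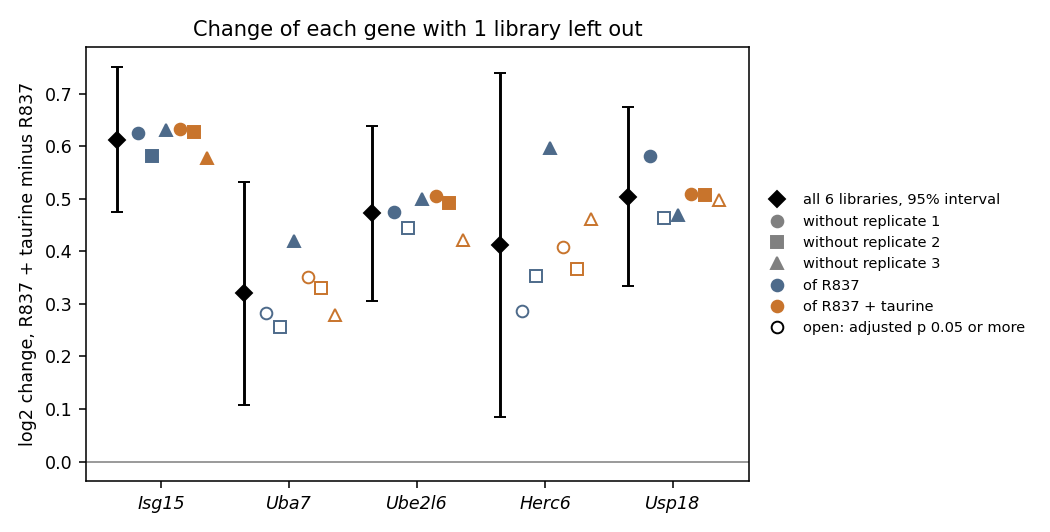
log2 change of each gene (R837 plus taurine minus R837) with all 6 libraries and its 95% interval (black), and with 1 library left out (blue, an R837 library; orange, a taurine library); filled points have an adjusted p under 0.05 in limma. Leaving out R837 replicate 3 raised Herc6 to 0.60 and Uba7 to 0.42, and every point lies above 0.

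Counting error was below the spread between libraries, except for Usp18 with taurine. The lowest read count of a gene in a library was 5960, for Ube2l6 in R837 replicate 3, which gives a counting error of 1.30% of the value. The spread between R837 libraries, as SD over mean, was 3.79% for Isg15, 3.83% for Ube2l6, 9.52% for Usp18, 12.6% for Uba7 and 23.6% for Herc6. With taurine it was 4.31% to 6.54% for 4 genes and 0.847% for Usp18, no more than the largest counting error of that gene in a library, 0.890%.

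Per length of exon, the modifier stood far above its enzymes. In RPKM (reads scaled by exon length and by library total), the level of Isg15 was 707 ± 29.1 with R837 and 1046 ± 44.5 with taurine (SD, n = 3). Usp18 followed with levels of 140 ± 12.2 and 192 ± 1.51, Ube2l6 with 84.8 ± 3.83 and 114 ± 7.13, and Uba7 with 47.3 ± 6.39 and 56.8 ± 2.92. Herc6 had the lowest RPKM level of the 5, at 30.0 ± 7.41 with R837 and 38.0 ± 2.50 with taurine. This order held in each of the 6 libraries, and within a group the libraries of neighbouring genes in the order did not overlap. The union of annotated exons was 756 bases for Isg15, 1996 for Ube2l6, 2790 for Usp18, 6692 for Uba7 and 9292 for Herc6, so long unused isoforms can lower the RPKM level of the longer genes.

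**Figure D3:**
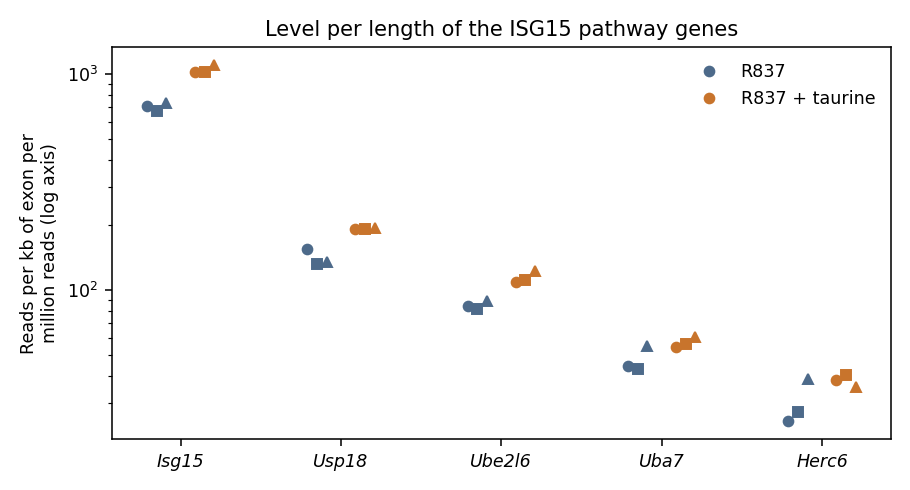
Level per length in RPKM (log axis) of the 5 genes in each library, R837 in blue and R837 plus taurine in orange, a symbol per replicate number. Isg15 lies at 675 to 733 with R837 and at 1017 to 1097 with taurine, above the 4 enzymes in each library.

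The genes were also set against each other by the ratio of each pair within a library, which does not depend on library scaling. The log2 ratio of Isg15 to Uba7 was 0.87, 0.83 and 0.60 with R837 and 1.08, 1.05 and 1.05 with taurine. The groups did not overlap, and the ratio was higher by 0.29 with taurine. The log2 ratio of Isg15 to Ube2l6 was higher by 0.14, and that of Uba7 to Ube2l6 was lower, with a difference of -0.15, both also without overlap. Each of these 3 pairs had a two-sided exact permutation p of 0.1, the smallest that this test allows with 3 against 3, and an adjusted p of 0.333 over the 10 pairs. The other 7 pairs overlapped between groups, with differences from -0.18 to 0.20. This test cannot reach 0.05 here whatever the values, so the ratios are given as a description and do not show whether the genes changed by different amounts.

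Library by library, the deviation of a gene from its mean ran with exon length, with Spearman correlations across genes of 0.0443 to 0.147 in the R837 libraries and -0.203 to -0.100 in the taurine libraries. Isg15 has the shortest and Herc6 the longest exons of the 5 genes. After each library's smooth trend on exon length and GC content was removed, the log2 change was 0.48 for Isg15, 0.31 for Uba7, 0.43 for Ube2l6, 0.49 for Herc6 and 0.48 for Usp18. The calls of Isg15, Ube2l6 and Usp18 held, and Herc6 passed with an adjusted p of 0.0364 from limma. The difference in log2 ratio was then 0.17 for Isg15 over Uba7, 0.049 for Isg15 over Ube2l6, 0.0019 for Isg15 over Usp18 and -0.010 for Isg15 over Herc6, so the larger change of Isg15 than of the last 3 genes shrank or was no longer seen. Uba7 over Ube2l6 stood at -0.13.

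Reads shared with other genes were few. Exons of Uba7, Herc6 and Usp18 overlap those of Gm20661, Gm45193 and Gm44148, which had at most 16, 68 and 27 reads in a library, and adding those reads left every call as it was. Of the 50-base stretches of their transcripts, 2.5% to 12.5% also occur in transcripts of another gene, with 4.0% for Isg15 and 12.5% for Herc6.

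Across the 6 libraries, Isg15, Ube2l6 and Usp18 ran together more closely than any of them did with Herc6. Pearson's r of the log2 values was 0.99 for Isg15 with Ube2l6, 0.96 for Isg15 with Usp18 and 0.93 for Ube2l6 with Usp18. It was 0.89 for Uba7 with Herc6, and 0.72, 0.73 and 0.57 for Herc6 with Isg15, Ube2l6 and Usp18. These values describe 6 libraries that share the group difference, and no test is attached to them.

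Among 9659 other genes with a mean normalized count of at least 100, the genes nearest to each member were taken by the root mean square difference of centred log2 values over the 6 libraries. For Isg15 they were Epsti1, an interferon-responsive gene, with a difference of 0.020 and r of 0.999, and Wdtc1, with 0.022 and 0.998. Usp18 lay nearest to Rsad2, which encodes the antiviral enzyme viperin (0.040, r of 0.992), and to Carhsp1, an RNA-binding protein gene (0.041, r of 0.988). Ube2l6 lay nearest to Gch1, the GTP cyclohydrolase of tetrahydrobiopterin synthesis (0.019, r of 0.998), and to the ribosomal protein gene Rpsa (0.023, r of 0.996). Rpsa shares 28.8% of its 50-base stretches with other genes, so its value is uncertain. Uba7 lay nearest to the receptor gene Gpr132 (0.024, r of 0.992) and to Myo1g, a myosin of blood cells (0.035, r of 0.986). Herc6 had looser neighbours, the coactivator gene Sub1 (0.057, r of 0.980) and the cytokine gene Il6 (0.063, r of 0.976). Such values were common, since 43 genes reached an r of 0.95 with Herc6 and 450 did with Ube2l6.

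No other gene of a reported ISG15 ligase or protease was called higher, but over all tested genes only 3.75% were. A count of 0 among 7 genes therefore does not set this list apart. Of 7 tested genes of this list, 0 were higher and 1 was lower by limma (0 and 1 by edgeR and also at an unadjusted p under 0.05), with a median log2 change of -0.20, and Usp13 was at 0 in all libraries. Usp16, a protease reported to act on both ubiquitin and ISG15 in human cells, fell from 1980.3 ± 272 to 1352 ± 118 (SD, n = 3; log2 change -0.55, adjusted p of 0.0364 from limma). Its call was kept in 1 of the 6 fits with 1 library left out and was not kept after removal of the length and GC trend (adjusted p of 0.124 from limma). Its exons overlap those of Cct8, so its value is uncertain. Trim25, a ubiquitin ligase of the RIG-I pathway that also acts as an ISG15 ligase, had normalized counts of 18583, 18264 and 18028 with R837 and 18155, 19092 and 8636 with taurine. Taurine replicate 3 stood far below the other 5 libraries, and the log2 change of -0.34 did not pass (adjusted p of 0.458 from limma). Arih1, also reported as an ISG15 ligase, had a log2 change of -0.14 and Usp2, a ubiquitin protease at 53.2 ± 28.4 with R837, one of -1.02, with adjusted p-values of 0.377 and 0.248 from limma.

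The relatives of each enzyme that serve other modifiers mostly did not pass the test. Of 9 activating enzyme genes, 0 were higher and 0 lower by limma and by edgeR, with 1 and 1 at an unadjusted p under 0.05 and a median log2 change of -0.08. Uba1, the activating enzyme of ubiquitin, had a log2 change of 0.18, Uba3 of -0.24 and Nae1 of 0.25, with adjusted p-values of 0.128, 0.245 and 0.428 from limma. Of 31 conjugating enzyme genes, 2 were higher and 0 lower (6.45% called, against 6.41% of all tested genes), with a median of 0.08. They were Ube2e3 (1221 ± 41.1 to 1615 ± 78.1, log2 change 0.40, adjusted p of 0.0364 from limma) and Ube2v1 (log2 change 0.38, adjusted p of 0.0376 from limma). Each stayed called in 1 of 6 fits when single libraries were dropped, and Ube2v1 was not called after removal of the length and GC trend (adjusted p of 0.0725 from limma). Ube2v1 shares 63.5% of its 50-base stretches with other genes, so its value is uncertain. Ube2l3, the closest relative of Ube2l6, works with ubiquitin and had normalized counts of 2461, 3202 and 2248 with R837 and 3572, 3532 and 5576 with taurine. Its groups did not overlap, but its log2 change of 0.66 ± 0.19 (SE) did not pass (adjusted p of 0.0757 from limma). After removal of the length and GC trend Ube2l3 was called higher, at 0.77 (adjusted p of 0.0487 from limma). Without that removal it was called in 0 of the 6 fits with 1 library left out, and 32.2% of its 50-base stretches are shared. Ube2g1 had a log2 change of 0.67 with an adjusted p of 0.0962 from limma.

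Of the other HERC ligases, Herc2 fell and the rest did not pass the test. Of 4 genes, 0 were higher and 1 lower by limma and by edgeR (0 and 2 at an unadjusted p under 0.05), with a median log2 change of -0.21. Over all tested genes 3.75% were higher and 2.66% lower by limma. Herc2, a very large ligase that works in the DNA damage response, had normalized counts of 5633, 5855 and 5454 with R837 and 3914, 4282 and 3232 with taurine. It fell by 0.58 on the log2 scale (SE 0.11, adjusted p of 0.0192 from limma), and by 0.43 after removal of the length and GC trend. Herc1 had a log2 change of -0.44 (adjusted p of 0.0520 from limma), Herc3, which lies in the same gene cluster as Herc6, one of 0.18 (adjusted p of 0.334 from limma), and Herc4 one of 0.02 (adjusted p of 0.939 from limma). With the length and GC trend removed, Herc1, Herc3 and Herc4 stood at -0.19, 0.33 and 0.16. The call of Herc2 was kept in 2 of the 6 fits with 1 library left out.

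Among 42 tested genes of other ubiquitin-specific proteases, 0 were higher and 1, Usp16, was lower by limma and by edgeR. By limma that is 2.38% called, against 6.41% of all tested genes. At an unadjusted p under 0.05 from limma 1 was higher and 11 lower, against 1767 and 1855 of all 15265 tested genes. The median log2 change, before removal of the length and GC trend, was -0.17, on the other side of 0 from Usp18. The log2 change was -0.35 for Usp32, -0.34 for Usp36 and -0.31 for Usp8 (adjusted p of 0.0655, 0.0735 and 0.0875 from limma). With that trend removed they stood at -0.22, -0.34 and -0.24. After removal of the length and GC trend the calls were 1 higher and 0 lower, and the higher gene was Usp25, looked up after its value was seen, with a log2 change of 0.33.

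Of 18 tested genes of ubiquitin and other ubiquitin-like modifiers, 3 were higher and 0 lower by limma, with a median log2 change of 0.14, and Ubd was at 0 in all libraries. The share called was 16.7%, against 6.41% of all tested genes. Fau, which encodes a ubiquitin-like protein fused to a ribosomal protein, rose from 12168 ± 1174 to 17240 ± 1168 (SD, n = 3; log2 change 0.50, adjusted p of 0.0147 from limma). Fau shares 30.0% of its 50-base stretches with other genes, so its value is uncertain. Gabarap, an ATG8-type modifier of autophagy, rose from 16549 ± 140 to 21458 ± 1686 (log2 change 0.37, adjusted p of 0.0196 from limma), and the ubiquitin gene Ubb had a log2 change of 0.25 (adjusted p of 0.0506 from limma). When single libraries were dropped, Fau stayed called in 3 of 6 fits and Gabarap in 1.

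**Figure D4:**
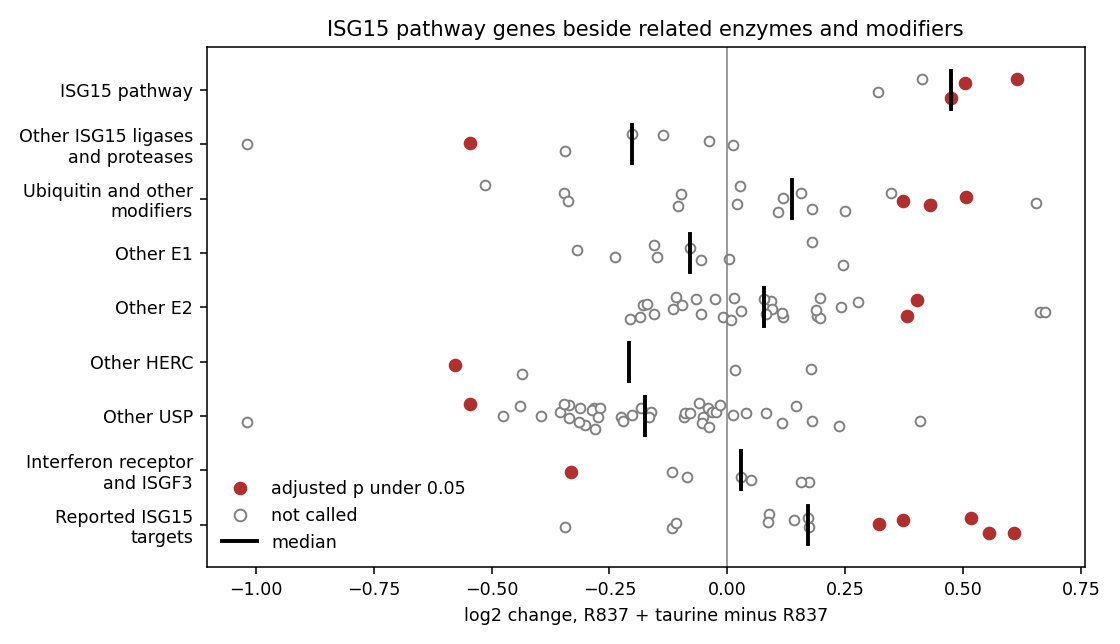
log2 change (R837 plus taurine minus R837) of each tested gene in the 5-gene pathway and in 8 lists of relatives, partners and targets; red points have an adjusted p under 0.05 in limma and black bars are list medians. The median of the pathway is 0.47, and that of the other lists lies between -0.21 and 0.17. Length and GC trends were not removed here.

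No gene of the receptor and factors that carry the interferon signal was called higher, and Ifnar1 fell. With 3.75% of all tested genes called higher and 2.66% lower, such counts in 7 genes say little about the list. Of 7 genes, 0 were higher and 1 lower by limma and by edgeR (0 and 1 at an unadjusted p under 0.05), with a median log2 change of 0.03. Ifnar1, a subunit of the type I interferon receptor, had normalized counts of 27331, 27823 and 25302 with R837 and 20830, 21762 and 21345 with taurine. It fell by 0.33 on the log2 scale (adjusted p of 0.0188 from limma), and its call was kept in 1 of the 6 fits with 1 library left out. Ifnar2, the subunit that USP18 binds, stood at 13608 ± 1087 and 13867 ± 859 (SD, n = 3; log2 change 0.03, adjusted p of 0.872 from limma). Jak1 had a log2 change of -0.12 and Irf9 of -0.09, with adjusted p-values of 0.358 and 0.436 from limma. The list of ISG15 partners outside the cell, the LFA-1 subunits Itgal and Itgb2, did not pass, with a log2 change of -0.26 for Itgal and -0.06 for Itgb2 (adjusted p of 0.0915 and 0.687 from limma).

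Of 13 genes whose proteins are reported targets of ISG15, 5 were higher and 0 lower by limma and by edgeR (6 and 0 at an unadjusted p under 0.05), with a median log2 change of 0.17. That is 38.5% called by limma, against 6.41% of all tested genes, in a list chosen with earlier results of these data known. The called genes were those of interferon-induced antiviral proteins. Mx1, an antiviral GTPase, had normalized counts of 40064, 38955 and 39936 with R837 and 58485, 57411 and 58670 with taurine, without overlap (log2 change 0.55). Ifit1, a binder of foreign RNA, went from 9729 ± 272 to 14838 ± 843 (log2 change 0.61, adjusted p of 0.00443 from limma). Ifit3, of the same family, had a log2 change of 0.52, with 51.2% of its 50-base stretches shared with other genes. The RNA sensor genes Ifih1 (MDA5) and Ddx58 (RIG-I), the latter named after its value was seen, rose by 0.32 and 0.37 on the log2 scale, with adjusted p-values of 0.0205 and 0.0222 from limma. Mx1, Ifit1 and Ifit3 stayed called whichever library was dropped, and Ifih1 and Ddx58 in 1 of 6 such fits each.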

How the data were processed

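The authors deposited, per the file headers, 1 normalized count per gene and library, a signal in which reads are divided by a factor per library. Dividing by the smallest step of each library gave whole reads, within 0.001, for 100% of values, and these were used as recovered reads. The submitters' processing notes name HISAT2, StringTie, mm8 and mm10. Which program counted or normalized the reads, and with which strand setting, is not given in the sources used here. Coordinates were identical for 95.2% of the 52403 genes shared with GENCODE M21 (mm10), the 5 described genes among them.

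The 15265 genes that reached a normalized count of 10 in 3 or more of the 6 libraries were fitted with limma 3.58.1 in R 4.3.3 on log2(normalized count + 1), with a group term and an abundance trend, two-sided, with Benjamini-Hochberg adjustment. The 5 genes passed this filter in both groups. Depth was 33585080 to 38392654 reads per library, and intervals on counts cover counting error only. Alternatives were pseudocounts of 0.5 and 5, other filters and scalings, no trend in the variance prior, edgeR 4.0.16 and DESeq2 1.42.0 on recovered reads, a replicate block, removal of length and GC trends, and leaving out each library. edgeR called 950 genes. Named genes were the 5 genes, listed members (up to 4 with the smallest p in longer lists), named relatives and, per gene, the 2 with the nearest profile. Some genes that this rule names are not reported here, though counts over lists include them. The genes and lists were chosen with earlier results of these data known. The limma script was tested on simulated data. Libraries of a group differed by more than sampling noise. Coordinates of promoter windows are from RefSeq.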

Additional observations from a re-analysis of the deposited data

How the results depend on the processing

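The changes of the 5 genes were positive under every alternative run, and Isg15 kept its call in each but limma without the abundance trend. That fit called 4 genes in all and 0 of the 5 (Isg15 at 0.61, Ube2l6 at 0.47 and Usp18 at 0.50 were not called), and 0 of 125 tested genes of the other lists, though 3217, 4 and 29 had an unadjusted p under 0.05, and edgeR called 950, 3 and 14. DESeq2 on recovered reads called 1929 genes, all 5 described genes (Uba7 at 0.32 and Herc6 at 0.39 included) and 29 genes of the other lists, against 979, 3 and 13. Without a filter on low values 547 genes were called. Removing length and GC trends brought in Herc6, at 0.49. With 1 library left out, the number of called genes ran from 134 to 1477, that of the 5 genes from 1 to 5 and that of the other lists from 3 to 25. The log2 change then ran from 0.26 to 0.42 for Uba7, 0.42 to 0.50 for Ube2l6, 0.29 to 0.60 for Herc6 and 0.46 to 0.58 for Usp18. Scalings moved the median of all genes by less than 0.1 on the log2 scale, and without the 50 most abundant genes in the library totals 462 genes were higher and 586 lower, against 573 and 406. The cause of these changes was not tested.

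Some differences in pair ratios changed sign. After removal of length and GC trends Isg15 over Herc6 was -0.010, from 0.20, Ube2l6 over Herc6 -0.059 and Herc6 over Usp18 0.012. With 1 library left out the difference ran from -0.096 to 0.19 for Ube2l6 over Herc6, -0.11 to 0.031 for Ube2l6 over Usp18 and -0.29 to 0.13 for Herc6 over Usp18. Same-numbered libraries did not deviate together (correlations of -0.00264, -0.00681 and -0.0434). The labels do not say whether they share a mouse or culture, and these correlations cannot settle that. With the replicate block 615 genes were called, and 3 of the 5 genes as before, while Usp16, Ube2e3 and Ube2v1 were not called.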

Other observations

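The nearest tested protein-coding genes on each side of the 5 loci were looked up by position. None of the 10 was called by limma. Inka1, 162 bases from the end of Uba7, averaged 204 ± 46.9 normalized counts under R837 and 273 ± 29.2 under R837 plus taurine (SD, n = 3; log2 change 0.44, adjusted p of 0.241 from limma). Agrn, 1935 bases from Isg15, stood at 8727 ± 1112 and 8247 ± 938 (log2 change -0.08, adjusted p of 0.715 from limma). Near Herc6, the phosphatase gene Ppm1k had a log2 change of 0.20 and Pyurf one of 0.19, with adjusted p-values of 0.301 and 0.611 from limma. Near Usp18, Tuba8 at 47.4 ± 1.96 and 81.7 ± 28.1 had a log2 change of 0.72 that did not pass (adjusted p of 0.206 from limma), though its groups did not overlap.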
